A study of Homo sapiens with 12 samples.

Results

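TRIM55, SLC41A2, C21orf91, GALNT16, FGF1 and GCH1 are 6 genes that had been picked because their transcripts stood higher when a short hairpin RNA against TCEAL1 was switched on. They were found by symbol in a table of 28576 genes, each had a single row, and all 6 passed the filter on low values that left 18674 genes for testing. The cells were SHEP, a human neuroblastoma line, in which every library, the untreated ones included, carried a MYCN-ER fusion and the inducible hairpin. MYCN-ER is a chimaera of the oncogenic transcription factor MYCN with an oestrogen receptor domain, and 4-hydroxytamoxifen (OHT) switches it on. The 4 groups of 3 poly(A) RNA-seq libraries were OHT_Dox (200 nM OHT with 1 µg/ml doxycycline), OHT (200 nM OHT, hairpin off), Dox (1 µg/ml doxycycline, MYCN-ER off) and Ctrl (neither compound). No library had a hairpin without a target or lacked MYCN-ER, so doxycycline itself cannot be told apart from the hairpin, nor OHT itself from MYCN-ER. The labels give 1 hairpin construct and 1 cell line, no treatment times, and replicate numbers that are not said to mark separate cultures, so p-values measure only the spread between these libraries.

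The 6 genes belong to different pathways. TRIM55, also called MURF2, is a RING-type ubiquitin ligase of striated muscle that binds titin in the sarcomere, and SLC41A2 is a membrane transporter of magnesium. C21orf91, known in mouse as Eurl, is a chromosome 21 gene described there in neural progenitors and in Wnt and beta-catenin signalling. GALNT16 is a Golgi enzyme of the family that starts mucin-type O-glycans by attaching N-acetylgalactosamine to serine or threonine. FGF1 is a secreted growth factor that lacks a signal peptide, leaves cells by an unconventional route, binds heparan sulphate and can bind the receptors of the FGF family. GCH1 is the first and rate-limiting enzyme in the synthesis of tetrahydrobiopterin, the cofactor of the aromatic amino acid hydroxylases and of nitric oxide synthases. TCEAL1, the gene that the hairpin targets, belongs to a family related to the elongation factor TFIIS, which helps stalled RNA polymerase II to resume.

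RefSeq promoter windows on GRCh38.p14 ran from 250 bases before to 50 bases after an annotated start. They were searched for 4 of the 6 genes, taken by symbol, with 8 windows in all. No window was matched for GCH1. TRIM55 was left out of the search, so its absence does not mean that it has no window. The motif counts below thus say nothing about TRIM55 or GCH1. One window each is shown for the 3 genes that held an E-box of the SNAI type (CACCTG on either strand). Of the motifs searched, only that one was found in windows of more than 1 of the 4 genes. In them capitals mark motif matches, and each sequence reads 5′ to 3′ along the gene's strand. The SLC41A2 window is chr12:104958697-104958996, the C21orf91 window chr21:17819307-17819606 and the FGF1 window chr5:142698021-142698320, all on the minus strand.
SLC41A2: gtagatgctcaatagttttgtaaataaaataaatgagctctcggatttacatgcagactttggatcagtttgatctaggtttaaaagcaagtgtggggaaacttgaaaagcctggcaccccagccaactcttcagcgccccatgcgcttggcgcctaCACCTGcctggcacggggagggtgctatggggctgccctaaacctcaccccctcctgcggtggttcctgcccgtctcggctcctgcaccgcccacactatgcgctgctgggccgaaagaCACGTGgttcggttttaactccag
C21orf91: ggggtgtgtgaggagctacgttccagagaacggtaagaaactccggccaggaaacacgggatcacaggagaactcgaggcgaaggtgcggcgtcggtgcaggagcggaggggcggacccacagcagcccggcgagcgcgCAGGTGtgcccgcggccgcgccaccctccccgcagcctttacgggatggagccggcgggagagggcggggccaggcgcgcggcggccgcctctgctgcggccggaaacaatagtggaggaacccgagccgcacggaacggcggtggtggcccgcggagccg
FGF1: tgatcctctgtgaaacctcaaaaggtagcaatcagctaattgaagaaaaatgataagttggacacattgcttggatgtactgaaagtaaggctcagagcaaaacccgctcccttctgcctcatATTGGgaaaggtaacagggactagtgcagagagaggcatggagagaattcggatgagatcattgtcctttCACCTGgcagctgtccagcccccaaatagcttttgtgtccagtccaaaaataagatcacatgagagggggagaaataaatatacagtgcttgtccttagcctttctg
The SNAI-type E-box began 93 bases before the start in SLC41A2, 111 bases before it in C21orf91 and 57 bases before it in FGF1. It was in 4 of the 8 windows (2 of the 4 of FGF1, which overlap each other, 1 of the 2 of SLC41A2 and the single one of C21orf91) and in 20.6% of the 35116 windows of that length in the whole table. The SLC41A2 window also held CACGTG, the canonical E-box that MYC proteins and other factors bind, which 7.26% of all windows held. The FGF1 window shown held a CCAAT box on the other strand, which 34.6% of all windows held. The single GALNT16 window, chr14:69259908-69260207 on the plus strand, held none of the 6 motifs searched. All motifs were searched on both strands. The AP-1 element, spelled TGANTCA, was in 1 further FGF1 window, against 7.71% of all windows. The TEAD element, spelled GGAATG, was in that same window, against 14.0% of all windows. The TATA box, spelled TATAAA, was in 0 of the 8 windows, against 11.5% of all windows. These matches describe letters in windows, and no binding was measured.

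TCEAL1 (ENSG00000172465) had 2.58, 2.50 and 1.73 CPM (counts per 1000000 reads) in OHT_Dox, against 8.23, 9.75 and 8.99 CPM in OHT. In Dox it had 2.62, 2.54 and 2.74 CPM, against 9.71, 9.11 and 10.7 CPM in Ctrl. Every library with doxycycline was below every library without, and no gene tested had a lower change in either comparison. Library depth ran between 44466458 and 57694970 reads. Of the 15 mesenchymal neuroblastoma markers tested, 0 rose and 3 fell in OHT_Dox against OHT, beside 0.509% and 1.59% of all genes, and 1 rose and 5 fell in Dox against Ctrl, beside 5.68% and 2.61% of all genes. The 16 listed markers summed to between 4267 and 4560 CPM in OHT_Dox libraries, against 5113 to 5521 CPM in OHT libraries, and to between 4429 and 4648 CPM in Dox libraries, against 5427 to 5792 CPM in Ctrl libraries. In Dox against Ctrl the 5 that fell were the filament gene VIM, the matrix genes COL1A1 and FN1, CD44 and the repressor SNAI2. SNAI2 had a log2 fold change of -1.28 (limma, adjusted p = 4.16e-06), while YAP1 rose by 0.26 (adjusted p = 0.0314). The median of the 15 was -0.04 in Dox against Ctrl and -0.18 in OHT_Dox against OHT, beside 0.05 and 0.02 over all genes. The sums rest largely on the abundant VIM, with 2359 ± 120 CPM in Dox and 2903 ± 184 CPM in Ctrl (SD, n = 3 each). Of 12 adrenergic markers 5 were tested, of which GATA2 rose in OHT_Dox against OHT (0.30, adjusted p = 0.0421) and ISL1 rose in Dox against Ctrl (0.36, adjusted p = 0.0313), and 0 fell in either comparison. The adrenergic sum was 136 to 144 CPM in OHT_Dox libraries, against 119 to 134 CPM in OHT libraries, and 109 to 111 CPM in Dox libraries, against 104 to 112 CPM in Ctrl libraries. Epithelial markers summed to at most 3.31 CPM, and haematopoietic and endothelial markers to at most 0.688 and 0.479 CPM, in any library. The part of the marker changes in the values of the 6 genes was not tested, and in bulk RNA fewer cells of a type and less RNA per cell cannot be told apart. OHT_Dox replicates 2 and 3 stood apart from their group in how their deviations ran with transcript GC content (Spearman correlation -0.501 and 0.528, against -0.187 to 0.291 in the other 10 libraries).

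TRIM55 (ENSG00000147573, on chromosome 8) had 163, 182 and 154 CPM in OHT_Dox, against 77.2, 92.6 and 86.6 CPM in OHT. In Dox it had 225, 207 and 237 CPM, against 102, 133 and 107 CPM in Ctrl. Each library with the hairpin on was above each library of its comparison group. The log2 fold changes, on the scale of log2(CPM + 0.5), were 0.96 ± 0.09 with OHT and 0.97 ± 0.09 without (SE, n = 3 per group), or 1.94-fold and 1.96-fold. They ranked 7th and 8th from the top among the 18674 genes. The order of the group means was Dox, OHT_Dox, Ctrl and OHT (223, 166, 114 and 85.5 CPM), and no neighbours in that order overlapped.

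SLC41A2 (ENSG00000136052), with the E-boxes printed above, had 25.0, 27.7 and 24.9 CPM in OHT_Dox, against 16.2, 14.7 and 14.5 CPM in OHT. Its values were 29.2, 26.7 and 27.3 CPM in Dox, against 13.9, 13.7 and 13.6 CPM in Ctrl. The 6 libraries with doxycycline lay between 24.9 and 29.2 CPM and the 6 without between 13.6 and 16.2 CPM. Its log2 fold change was 0.75 ± 0.08 with OHT and 0.98 ± 0.08 without, ranking 12th and 6th. Dox and OHT_Dox, its highest groups, overlapped each other, and OHT stood just above Ctrl.

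C21orf91 (ENSG00000154642) had 21.9, 26.7 and 20.96 CPM in OHT_Dox, against 15.9, 15.9 and 16.3 CPM in OHT. It had 34.8, 32.7 and 33.3 CPM in Dox, against 20.7, 16.5 and 17.8 CPM in Ctrl. The libraries did not overlap in either comparison, although the lowest OHT_Dox library, at 20.96 CPM, lay close to the highest Ctrl library. The log2 fold change was 0.51 ± 0.09 with OHT and 0.86 ± 0.09 without, ranking 93rd and 11th. Group means ran Dox, OHT_Dox, Ctrl and OHT, as for TRIM55, at 33.6, 23.2, 18.3 and 16.01 CPM.

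GALNT16 (ENSG00000100626) had 5.49, 4.96 and 4.79 CPM in OHT_Dox, against 2.43, 2.48 and 2.87 CPM in OHT. In Dox it had 2.998, 3.33 and 3.10 CPM, against 2.80, 3.03 and 1.94 CPM in Ctrl. Only the 3 libraries with both compounds were above 3.33 CPM, and the Dox and Ctrl libraries overlapped. Its log2 fold change was 0.85 ± 0.14 with OHT, ranking 8th, and 0.25 ± 0.14 without, ranking 2490th. Without Ctrl replicate 3 the second of these was 0.09. GALNT16 thus stood higher with doxycycline in the libraries with OHT, and not beyond their spread in those without. These values rest on 112 to 294 reads per library.

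FGF1 (ENSG00000113578) had 36.8, 37.7 and 31.8 CPM in OHT_Dox, against 22.3, 23.5 and 24.3 CPM in OHT. It had 43.3, 39.9 and 38.5 CPM in Dox, against 32.2, 34.8 and 33.0 CPM in Ctrl. Both comparisons were free of overlap, but the OHT_Dox libraries overlapped the Ctrl libraries, and OHT alone stood below all other groups. The log2 fold change was 0.59 ± 0.08 with OHT and 0.28 ± 0.08 without, ranking 51st and 1985th.

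GCH1 (ENSG00000131979) had 4.26, 4.74 and 4.23 CPM in OHT_Dox, against 3.95, 3.36 and 4.50 CPM in OHT. In Dox it had 6.20, 6.41 and 6.28 CPM, against 4.31, 3.65 and 3.36 CPM in Ctrl. The Dox libraries were the only ones above 4.74 CPM, and the other 3 groups overlapped one another in the order of their means. Its log2 fold change was 0.15 ± 0.13 with OHT, ranking 3030th, and 0.67 ± 0.13 without, ranking 28th. With OHT, GCH1 did not stand higher with doxycycline beyond the spread, since 1 OHT library lay above 2 of the OHT_Dox libraries. Without OHT replicate 2 that change was 0.06. GCH1 was counted with 179 to 354 reads per library.

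**Figure D1:**
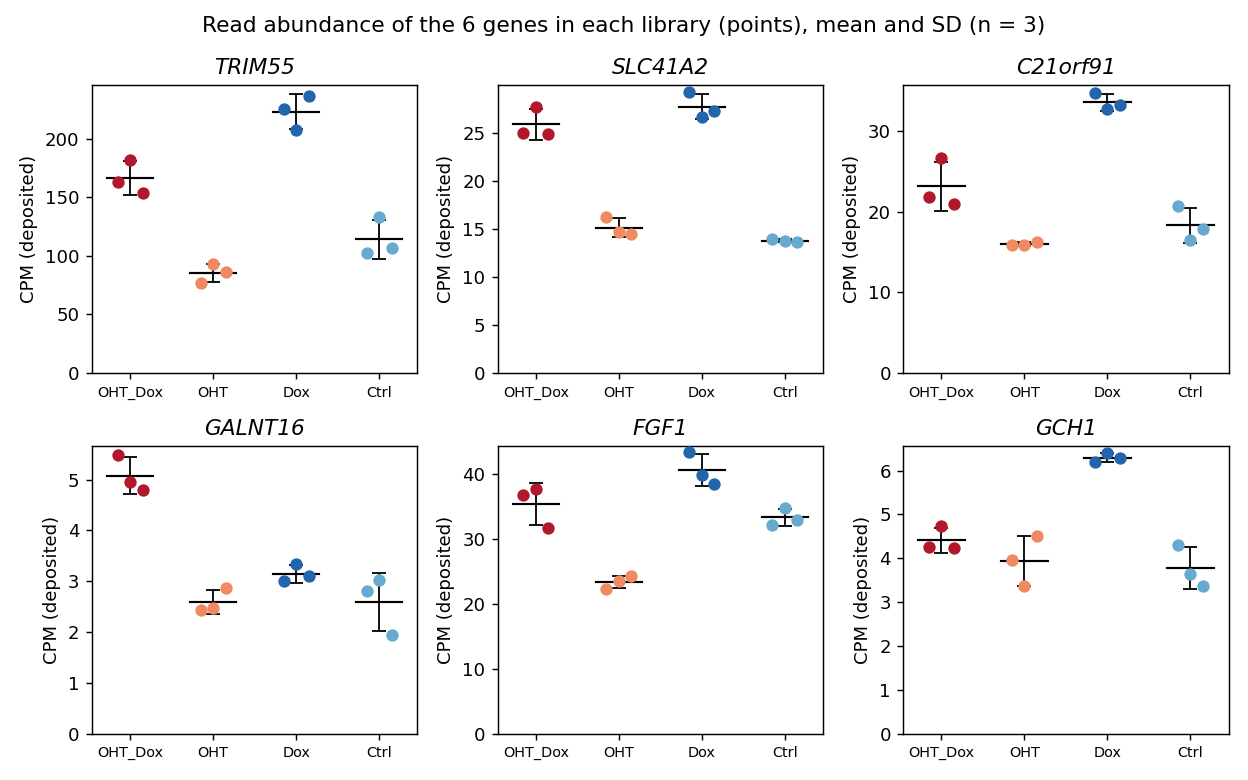
CPM of each of the 6 genes (vertical axes, each from 0) in the OHT_Dox, OHT, Dox and Ctrl libraries, 1 point per library, with the group mean (long bar) and SD (whiskers, n = 3). TRIM55, SLC41A2 and C21orf91 were high in both doxycycline groups, GALNT16 in OHT_Dox alone and GCH1 in Dox alone.

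In OHT_Dox against OHT, 5 of the 6 genes had libraries wholly above the comparison group, GCH1 being the exception, where 10.4% of all genes tested did. In Dox against Ctrl it was again 5 of 6, with GALNT16 the exception, where 19.1% of all genes did. Both held at once for TRIM55, SLC41A2, C21orf91 and FGF1, and for 3.11% of all genes. The median log2 fold change of the 6 was 0.67 with OHT, against 0.02 over all genes, and 0.77 without OHT, against 0.05 over all genes. Since the genes were chosen on these comparisons, these figures describe the choice and no test of them is given.

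The Dox effect with OHT was then set against the Dox effect without OHT as an interaction, (OHT_Dox minus OHT) minus (Dox minus Ctrl). The interaction is the difference of the Dox comparisons that chose the genes. Picking a gene for a large rise in a single background can pull it away from 0, in either direction. Its intervals and p-values are thus descriptive for the 6 genes. The interaction was -0.01 ± 0.13 for TRIM55, with a 95% interval of -0.28 to 0.25. For SLC41A2 it was -0.23 ± 0.11 (interval -0.46 to -0.001) and for C21orf91 -0.35 ± 0.13 (interval -0.63 to -0.08). The effect with OHT was thus estimated as smaller in SLC41A2 and C21orf91 and of like size in TRIM55, within that interval. GCH1 had the lowest value of the 6, at -0.52 ± 0.18 (interval -0.89 to -0.15). GALNT16 and FGF1 differed in the other direction, at 0.60 ± 0.20 (interval 0.18 to 1.02) and 0.31 ± 0.11 (interval 0.08 to 0.53). The 95% interval left out 0 for 5 of the 6, beside 2879 of all 18674 genes with an unadjusted limma p below 0.05. Adjusted over all genes, the limma p-values of the 6 lay between 0.222 and 0.971 and 0 of the 6 were called. Over all 18674 genes limma called 0 interactions (0%), while edgeR called 0 and DESeq2 called 1. Without Ctrl replicate 1 limma called 1039 genes, of which C21orf91 (-0.44, adjusted p = 0.0473) was the only one of the 6. After each library's trend with GC content and length was removed, an alternative added once the data had been seen, the interaction was -0.06 for SLC41A2 and -0.16 for C21orf91. TRIM55 took the opposite sign under TMM rescaling, at 0.02.

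**Figure D2:**
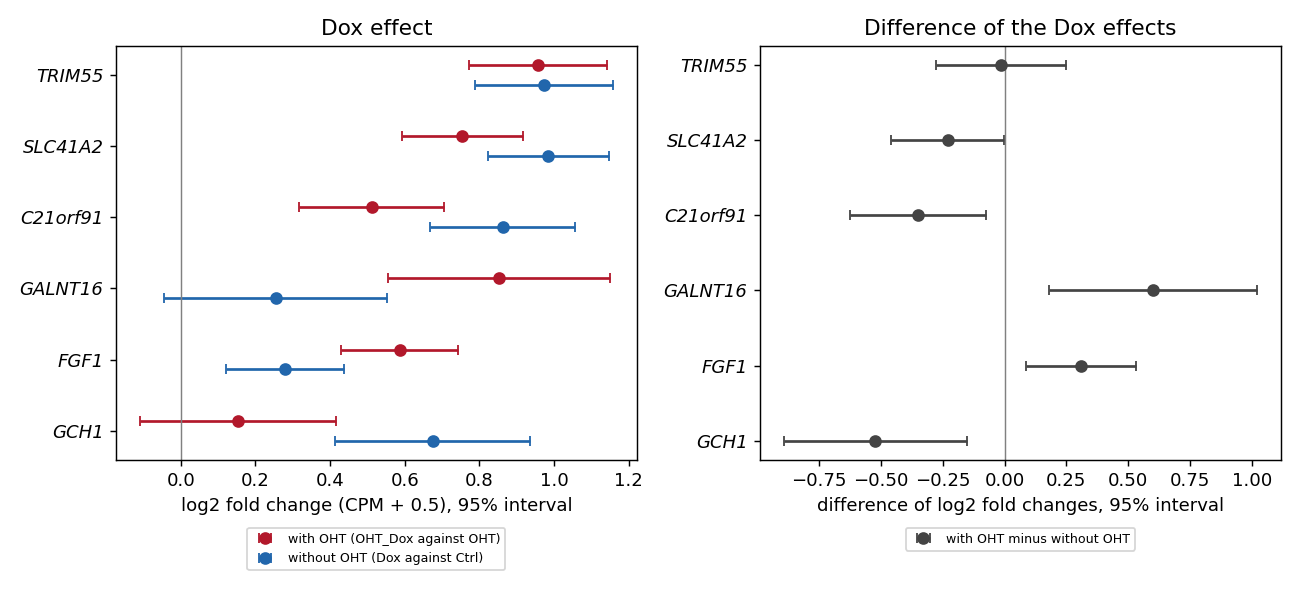
Left, log2 fold change of each gene on the log2(CPM + 0.5) scale with its 95% interval, for OHT_Dox against OHT (red, upper of each pair) and Dox against Ctrl (blue, lower); right, the difference of these changes, with OHT minus without OHT. GALNT16 and FGF1 lie right of 0 in the right panel, GCH1, C21orf91 and SLC41A2 left of it, and the interval of TRIM55 spans 0.

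The OHT comparisons, which did not choose the genes but share libraries with those that did, gave different orders. In OHT against Ctrl, TRIM55 fell by 0.41 on the log2 scale (limma, adjusted p = 0.00231) and FGF1 fell by 0.50 (adjusted p = 6.49e-05). Every OHT library was below every Ctrl library for both. FGF1 ranked 51st with OHT and 1985th without in the Dox comparisons. A choice through its low OHT libraries would push FGF1 downward here, so its p-value and call are descriptive. The 2 genes called lower and 0 called higher stand beside 8.79% and 12.6% of all genes. C21orf91, at -0.18 (adjusted p = 0.176), and SLC41A2, at 0.13 (adjusted p = 0.253), did not pass. Their OHT and Ctrl libraries did not overlap, with OHT lower in C21orf91 and higher in SLC41A2, where 16.7% of all genes tested lay wholly lower and 17.5% wholly higher. GALNT16, at 0.02 (adjusted p = 0.957), did not pass and took the opposite sign under edgeR and DESeq2, and GCH1, at 0.05 (adjusted p = 0.820), did not pass either. For C21orf91 the change was called after removal of the GC and length trends, at -0.21 (adjusted p = 0.0433).

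With the hairpin on, in OHT_Dox against Dox, 3 of the 6 genes were called lower and 1 higher, beside 14.5% and 11.5% of all genes (2709 and 2153 genes, against 2220 and 2553 with TMM rescaling). C21orf91 fell by 0.53 (adjusted p = 0.000264), GCH1 fell by 0.47 (adjusted p = 0.00863) and TRIM55 fell by 0.42 (adjusted p = 0.00144), each with all OHT_Dox libraries below all Dox libraries. GALNT16 rose by 0.61 (adjusted p = 0.00321), with all OHT_Dox libraries above all Dox libraries. GALNT16 ranked 8th with OHT and 2490th without in the Dox comparisons, and GCH1 3030th and 28th. A choice through the group where each was high would push GALNT16 upward and GCH1 downward here. C21orf91, ranked 93rd with OHT and 11th without, leans the same way as GCH1. The p-values and calls of GALNT16, GCH1 and C21orf91 in this comparison are thus descriptive. Over all genes, 23.9% had OHT_Dox libraries wholly below the Dox libraries and 17.4% wholly above. FGF1, at -0.20 (adjusted p = 0.0630), did not pass over all libraries, and was called without OHT_Dox replicate 2 (-0.24, adjusted p = 0.0378). SLC41A2, at -0.10 (adjusted p = 0.388), had overlapping libraries and the opposite sign, at 0.06, after removal of the GC and length trends.

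**Figure D3:**
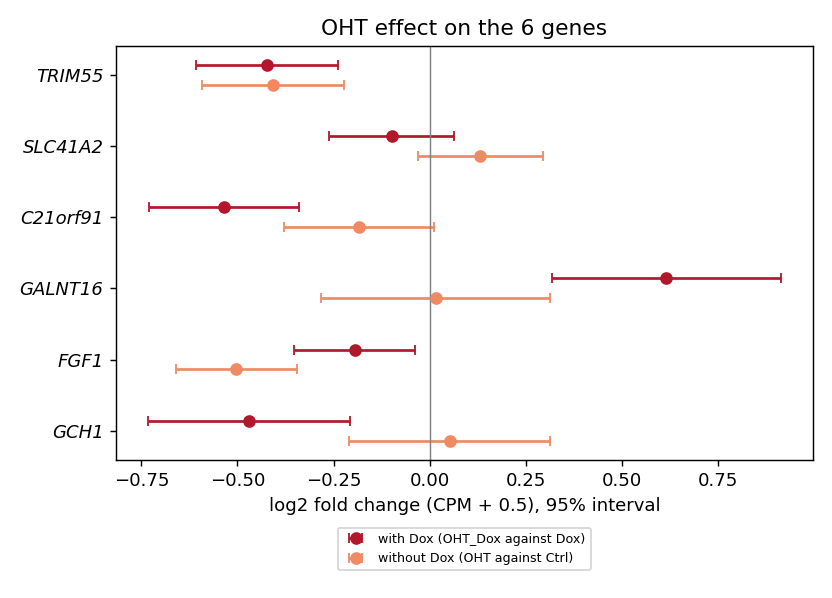
Log2 fold change of each gene on the log2(CPM + 0.5) scale with its 95% interval, for OHT_Dox against Dox (dark red, upper of each pair) and OHT against Ctrl (orange, lower). The intervals of TRIM55 and FGF1 lie left of 0 in both, and GALNT16 is the only gene whose interval lies right of 0, in OHT_Dox against Dox.

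Genes that overlap the 6 were examined next, because the strand setting of the authors' counting is not given in the sources used here. SPRY4-AS1 (ENSG00000231185), a transcript antisense to FGF1, ran with FGF1 at a Pearson correlation of 0.998 over the 12 libraries. In each of the 12 it had between 89 and 184 more reads than FGF1, a ratio of 1.06 to 1.10. GENCODE release 29 gives their exons 0 bases in common. The gene models that the authors counted were not checked, and their processing notes list hg19 as the human build. The exon bases in common given here thus describe GENCODE release 29 alone. SPRY4-AS1 changed by 0.56 in OHT_Dox against OHT and by 0.27 in Dox against Ctrl, close to the values of FGF1. Reads of FGF1 and SPRY4-AS1 cannot be told apart on these files, and the values of FGF1 are uncertain for that reason. C21orf91-OT1, on the same strand as C21orf91 with 47 exon bases in common, had 0.573 to 0.672 times its CPM (correlation 0.991) and changes of 0.54 and 0.77 in the same comparisons. AL109761.1 (ENSG00000244676, named from GENCODE), antisense to C21orf91 with 71 exon bases in common, had 0.189 to 0.239 times its CPM and changes of 0.49 and 0.91. AL359317.1, which overlaps GALNT16 on the other strand, did not follow it, with changes of -0.12 and 0.04.

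**Figure D4:**
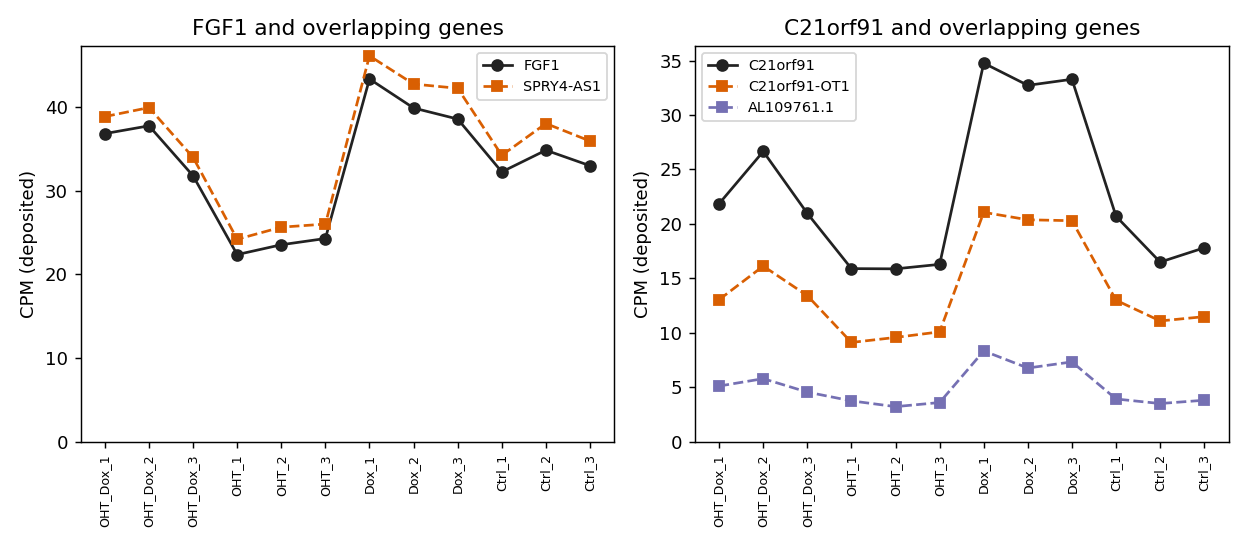
CPM in each of the 12 libraries of FGF1 with SPRY4-AS1 (left) and of C21orf91 with C21orf91-OT1 and AL109761.1 (right); lines join libraries only to guide the eye. SPRY4-AS1 lies just above FGF1 in all 12 libraries.

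The nearest tested genes with a symbol on either side of each of the 6 came to 12 in all. In OHT_Dox against OHT 1 of the 12 rose and 0 fell, beside 0.509% and 1.59% of all genes. It was BTG3, an antiproliferative gene beside C21orf91, with 93.3 ± 4.1 CPM in OHT_Dox and 80.6 ± 2.0 CPM in OHT (SD, n = 3 each; log2 0.21, adjusted p = 0.0489). In Dox against Ctrl 2 rose and 0 fell, beside 5.68% and 2.61% of all genes (1061 and 487 genes, against 519 and 771 with TMM rescaling, under which the median over all genes was 0.003 in place of 0.05). BTG3 rose by 0.18 (adjusted p = 0.0482), and SAMD4A, an RNA-binding repressor of translation beside GCH1, rose by 0.38 (adjusted p = 0.0218). With TMM rescaling the calls of BTG3 were lost in both comparisons, and RRS1, a ribosome biogenesis gene beside TRIM55 whose change without that rescaling was -0.19 and did not pass, was called lower in Dox against Ctrl, giving 1 higher and 1 lower there. It was also called with edgeR and DESeq2. Further, 0 of the 12 neighbours were called in Dox against Ctrl without Dox replicate 2 or 3 or without Ctrl replicate 2 or 3. In OHT_Dox against OHT 0 were called without any one of OHT_Dox replicates 1 and 2, OHT replicates 1 to 3, Dox replicates 1 to 3 and Ctrl replicate 3. SPRY4, an inhibitor of FGF receptor signalling beside FGF1, had changes of -0.05 and 0.22, which did not pass.

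The pathways around the 6 genes were described with 10 lists holding 148 other genes, of which 106 were tested. In OHT_Dox against OHT, 3 of the 106 rose and 0 fell (2.83%), beside 2.1% of all genes called either way. In Dox against Ctrl, 14 rose and 4 fell (17.0%), beside 8.29% of all genes called either way, 5.68% higher and 2.61% lower. With TMM rescaling 11 rose and 5 fell there, and after removal of the GC and length trends 5 rose and 4 fell. The 18 calls of Dox against Ctrl kept their sign under every alternative run, but their number hung on single libraries. It was 1 without Dox replicate 2, 3 without Ctrl replicate 3, 4 without Ctrl replicate 2, 9 without Dox replicate 3, 11 without Dox replicate 1 and 28 without Ctrl replicate 1, and 9 after removal of the GC and length trends. Of the 3 calls of OHT_Dox against OHT, 0 were kept without OHT_Dox replicate 2 or without OHT replicate 1, and 1 was kept without OHT_Dox replicate 1 or 3.

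Around TRIM55, 13 muscle and sarcomere genes were tested, of which 0 were called in OHT_Dox against OHT and 2 rose and 2 fell in Dox against Ctrl. MEF2C, a muscle transcription factor, rose by 0.36 (adjusted p = 0.0219) and NBR1, an autophagy receptor that joins the titin signalling complex, rose by 0.23 (adjusted p = 0.0320). SQSTM1, also an autophagy receptor, fell by 0.31 (adjusted p = 0.0148) and FBXO32, a ubiquitin ligase of muscle atrophy, fell by 0.50 (adjusted p = 0.0257). Of the relatives of TRIM55, TRIM54 reached at most 1.00 CPM and TRIM63 has no row in the table used here. Sarcomere genes stood at very different levels. ACTA1, ACTN2 and TNNT2 stayed at or below 0.299 CPM in every library, while TTN, which encodes titin, had 17.9 to 30.4 CPM, TNNT1 had 70.2 to 89.4 CPM and MYH3 had 10.7 to 16.1 CPM.

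Of 19 magnesium transport genes tested beside SLC41A2, 0 were called in OHT_Dox against OHT. In Dox against Ctrl 5 rose and 0 fell, beside 5.68% and 2.61% of all genes, shares that moved with TMM rescaling as given above. The 5 included the channel kinases TRPM6 (31.5 ± 2.0 CPM in Dox and 24.1 ± 2.2 CPM in Ctrl, log2 0.38, adjusted p = 0.0116) and TRPM7 (55.0 ± 1.5 CPM in Dox and 42.9 ± 3.7 CPM in Ctrl, log2 0.36, adjusted p = 0.0146). NIPA1, a magnesium transporter of endosomes, rose by 0.30 (adjusted p = 0.0183), and SLC41A1, the closest relative of SLC41A2, rose by 0.27 (adjusted p = 0.0191). The median over the 19 genes was 0.11 in Dox against Ctrl and -0.004 in OHT_Dox against OHT, beside 0.05 and 0.02 over all genes.

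Beside C21orf91, 13 genes of Wnt signalling and its feedback were tested. DKK1, a secreted inhibitor of the Wnt coreceptors, was the single gene called in OHT_Dox against OHT (61.1 ± 2.6 CPM in OHT_Dox and 43.8 ± 8.3 CPM in OHT, log2 0.49, adjusted p = 0.0488). APC, a scaffold of the complex that degrades beta-catenin, was the single one in Dox against Ctrl (46.0 ± 3.1 CPM in Dox and 34.7 ± 6.2 CPM in Ctrl, log2 0.41, adjusted p = 0.0334). The feedback gene AXIN2 changed by -0.11 and -0.0002 in these comparisons, which did not pass. Of 18 genes that start or extend mucin-type O-glycans, 0 were called in either comparison by limma. The most abundant, GALNT2 and GALNT1, had changes of 0.01 and -0.12 in OHT_Dox against OHT and 0.06 and 0.12 in Dox against Ctrl.

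The FGF pathway was taken by role. Of 7 other ligands tested, FGF5 alone rose in Dox against Ctrl (204 ± 11 CPM in Dox and 167 ± 2.0 CPM in Ctrl, log2 0.29, adjusted p = 0.00957), and 0 were called in OHT_Dox against OHT. Of 10 receptors and coreceptors, the heparan sulphate carrier SDC4 rose in OHT_Dox against OHT (log2 0.28, adjusted p = 0.00946). SDC3, of the same kind, rose by 0.30 in Dox against Ctrl (adjusted p = 0.0216), while GPC1, a lipid-anchored one, fell by 0.23 (adjusted p = 0.0376). FGFR1, the receptor gene, had 123 ± 5.8 CPM in OHT_Dox and 115 ± 5.5 CPM in OHT, with a change that did not pass. Among 5 genes of FGF1 export and binding, SPHK1, a sphingosine kinase, fell by 0.49 in Dox against Ctrl (71.0 ± 2.5 CPM in Dox and 100.4 ± 12 CPM in Ctrl, adjusted p = 0.00161). Of 12 effectors and feedback genes, SPRED3 rose by 0.63 in OHT_Dox against OHT (adjusted p = 0.0219). In Dox against Ctrl 4 of the 12 rose and 0 fell, beside 5.68% and 2.61% of all genes. Among the 4 were the transcription factors ETV5 (0.26, adjusted p = 0.0128) and ETV4 (0.25, adjusted p = 0.0312) and the receptor adaptor FRS2 (0.32, adjusted p = 0.0271). Of those not called there, SPRED3, SPRY2, SPRY4, SPRED2 and IL17RD had changes above 0. DUSP6 (-0.15), SPRY1 (-0.10) and FRS3 (-0.09) had changes below 0.

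Around GCH1, 0 of 7 genes of tetrahydrobiopterin synthesis and recycling were called in either comparison. PCBD1, which recycles the cofactor, had changes of 0.06 in OHT_Dox against OHT and -0.04 in Dox against Ctrl. Of the enzymes that use the cofactor only NOS3 and AGMO were tested, and 0 of them were called. TH, the tyrosine hydroxylase gene, has no row in the table used here, and NOS1, NOS2, TPH1 and TPH2 stayed at or below 0.255 CPM in every library.

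**Figure D5:**
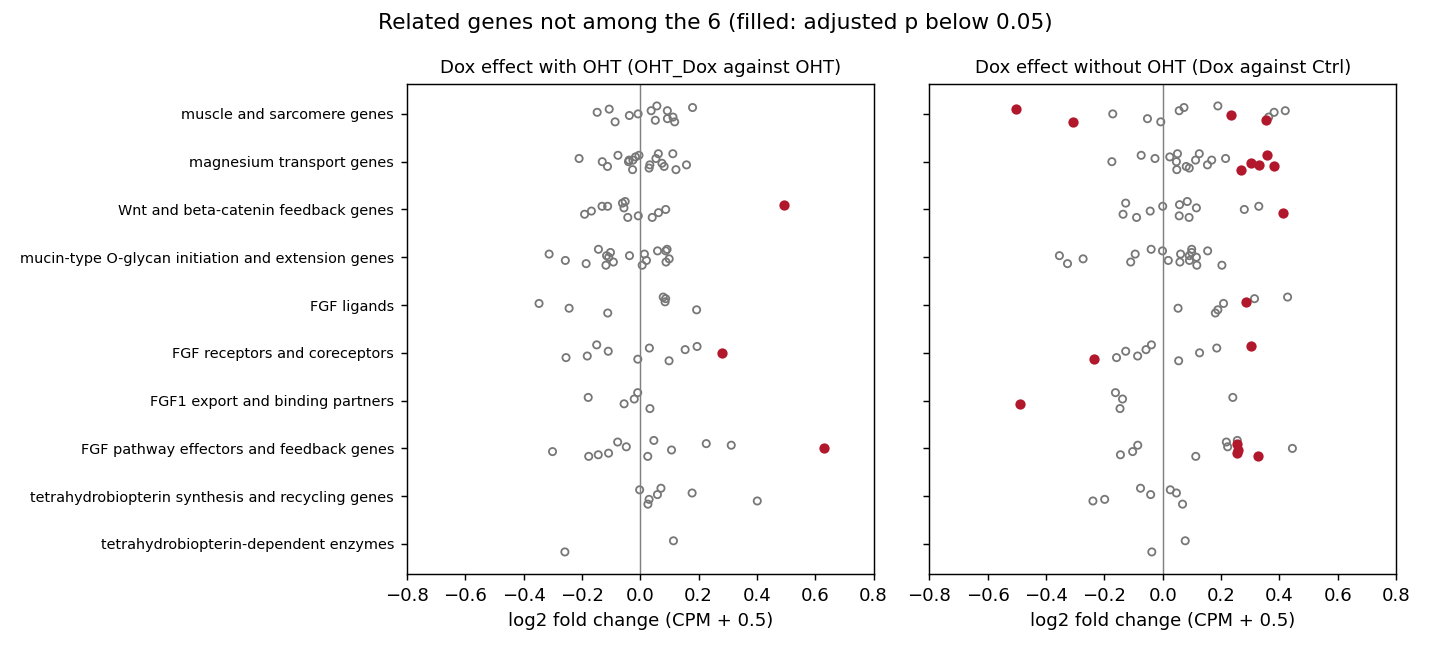
Log2 fold change on the log2(CPM + 0.5) scale of the 106 tested genes of the 10 lists, in OHT_Dox against OHT (left) and Dox against Ctrl (right), 1 point per gene, filled where the adjusted p was below 0.05. In the left panel 3 points are filled and in the right panel 18, with 5 magnesium transport genes all right of 0.

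The genes most like each of the 6 were taken by Pearson correlation of log2(CPM + 0.5) over the 12 libraries, which share their depth and treatments with the gene they are compared with, so the values are descriptive. Of about 11624 candidates, TRIM55 was nearest to P3H2 (0.953), a collagen prolyl hydroxylase gene, then SCD5 (0.941) and SMG8 (0.939). P3H2 changed far less than TRIM55, by 0.19 in OHT_Dox against OHT and 0.19 in Dox against Ctrl. SLC41A2 was nearest to MIR30A (0.983), a microRNA gene that stood 5.62 higher in OHT_Dox against OHT and 5.60 higher in Dox against Ctrl on the log2 scale, then FAM8A1 and SNHG22 (0.949 each). The labels do not give the backbone of the hairpin vector, and whether the reads assigned to MIR30A came from the endogenous gene was not tested. C21orf91, after C21orf91-OT1, was nearest to the acetyltransferase gene KAT2B (0.981) and ZNF45 (0.971). FGF1, after SPRY4-AS1, was nearest to CDC25A (0.983), a cell cycle phosphatase gene, and DSCR8 (0.965). GCH1 was nearest to RELCH (0.977), ASB7 (0.968) and RGPD8 (0.963), a gene with near-identical copies, which makes its count uncertain. GALNT16 had the loosest neighbours, RIOK1 (0.898), DTNB (0.883) and ZCCHC3 (0.872). Between the 6 themselves the correlation was highest for TRIM55 and C21orf91 (0.918) and lowest for GALNT16 and GCH1 (0.265).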

How the data were processed

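Poly(A) RNA was enriched after DNase treatment and sequenced from strand-specific (directional) libraries, per the labels' protocols. The deposited values are CPM, reads per gene scaled by the authors to 1000000 per library. The submitters' processing notes, which also cover ChIP-seq, list featureCounts, STAR, Bowtie, Bowtie2, DRAGEN and FastQC. They list hg19 and mm10 as builds. The role of each tool and the strand setting are not given in the sources used here. All values were whole multiples of 1 read within 0.01 reads, so reads were recovered.

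Genes with at least 0.5 CPM in at least 3 libraries were fitted as log2(CPM + 0.5) with limma 3.58.1 (R 4.3.3), as 4 group means with a trended prior and Benjamini-Hochberg adjustment over all genes tested. Tests are two-sided, calls are adjusted p below 0.05, and the pseudocount understates changes of low genes. edgeR 4.0.16 and DESeq2 1.42.0 on the recovered reads, other pseudocounts, filters and scalings, removal of each library and a replicate block were alternatives. The fit was tested on simulated data. The members and lists were chosen with earlier results of these data known. Named were the 6 genes, TCEAL1, up to 4 called genes per list by smallest p (or 2 abundant ones), nearest neighbours and the 3 most correlated genes averaging 5 CPM or more. List genes singled out for being low or at issue were chosen after their values were seen. Names, exons and neighbours came from GENCODE release 29, promoters from RefSeq. A few genes of the lists are not reported here by name.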

Additional observations from a re-analysis of the deposited data

How the results depend on the processing

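The 6 calls among the 6 genes in the OHT comparisons held under every alternative run, and without single libraries the count was 6 to 7. These calls share libraries with the comparisons that chose the genes. Every alternative used those same libraries, so the stability of the calls does not remove a push from that choice. Counts over all genes moved more. In OHT_Dox against OHT 392 genes were called, 685 with DESeq2, 631 with the replicate block, 711 after removal of GC and length trends, and 200 (without OHT replicate 1) to 503 (without Ctrl replicate 1) without single libraries. It was 204 without OHT_Dox replicate 1. In Dox against Ctrl 1548 were called, 992 with no filter on low values, 2525 with the replicate block, and 197 (without Dox replicate 2) to 3182 (without Ctrl replicate 1). It was 231, 351, 609 and 880 without Ctrl replicate 3, Ctrl replicate 2, Dox replicate 3 and Dox replicate 1. Without single libraries OHT against Ctrl gave 2817 to 4304 calls (3998 with all), OHT_Dox against Dox 3562 to 5136 (4862 with all) and the interaction 0 to 1039, with 1 by DESeq2. List genes called in the Dox comparisons numbered 21, 13 after removal of GC and length trends, and 3 to 32 without single libraries.

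Some values near 0 changed sign. The interaction of TRIM55 was 0.0233 with TMM rescaling, 0.0322 with edgeR, 0.0302 with DESeq2, 0.0139 after removal of GC and length trends, and -0.13 to 0.058 without single libraries. OHT_Dox against Dox in SLC41A2 was 0.0572 after removal of those trends. OHT against Ctrl in GALNT16 was -0.0028 with edgeR, -0.0070 with DESeq2, -0.0293 after removal of those trends and -0.146 to 0.120 without single libraries, and in GCH1 -0.0385 to 0.148. The cause was not tested. Deviations of same-numbered replicates correlated weakly, at -0.174 to 0.330, with 7 of 18 values over 0.1. Their correlation with GC content was positive in replicate 3 of every group (Spearman, 0.117 to 0.528) and negative in every other library. The replicate block also gave more calls in OHT against Ctrl (4528 against 3998) and in OHT_Dox against Dox (5422 against 4862), and 0 for the interaction. Whether the replicate numbers mark matched sets of libraries was not tested. With the replicate block FGF1 was called in OHT_Dox against Dox (-0.20, adjusted p = 0.0498). GALNT16 and GCH1, at a few CPM, carry the widest errors of the 6.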
